A study of Mus musculus with 4 samples.

Results

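The transcripts of 7 genes in invariant natural killer T (iNKT) cells were compared between CD4-Vα14Tg and wild-type (WT) mice. These genes encode lineage factors of iNKT or other T cells, with a partner and a relative, and are together called lineage factors below. The genes are Zbtb16 (encoding PLZF), its partner Cul3, the CD4-lineage factor gene Zbtb7b (ThPOK) and its relative Zbtb7a (LRF), Gata3, Bcl11b and Myb. Members were all probe sets whose platform annotation names exactly 1 of these genes, which gave 9 of the 41345 probe sets on the array: Gata3 and Myb had 2 each and the other genes 1 each. A further probe set that lists Gata3 together with other genes was not used. All 7 genes passed the filter on dim genes and are among the 13602 genes tested.

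The series holds 4 Affymetrix whole-transcript arrays, 2 for iNKT cells from CD4-Vα14Tg mice and 2 for those from WT mice, all made from total RNA. The labels name iNKT cells as the source of every sample, whereas their extraction notes speak of frozen tissue, so the labels alone do not settle whether the RNA came from isolated cells; the markers measured are given below. In the CD4-Vα14Tg mice a transgene for the Vα14 T cell receptor (TCR) α chain is driven by the CD4 promoter. The labels give no strain, age, sex, organ or sorting gate, and they do not say whether an array holds RNA of 1 animal or of a pool. Nor do they say whether the 2 arrays of a genotype come from separate mice, so p-values measure only the spread between these samples, which may be technical.

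iNKT cells are T cells with a nearly fixed TCR that sees lipids on CD1d. They are selected from CD4+CD8+ thymocytes, which must live long enough to make the Vα14 rearrangement, and PLZF then gives them the innate-like effector program that separates them from conventional T cells. ThPOK, GATA3, BCL11B and MYB act in conventional T cell development too, where they set T lineage commitment, thymocyte survival and the choice between CD4 and CD8 fates.

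Array quality and cell identity bear on all values below. Arrays of 1 genotype correlated at 0.993 (CD4-Vα14Tg) and 0.994 (WT) across the 23521 probe sets with 1 gene symbol, and arrays of different genotype at 0.987 to 0.989. All 9 T cell markers measured lay above the filter level on every array, and 0 of them passed the test for a difference (0 at an unadjusted p under 0.05 in limma). Of immature thymocyte, B cell and myeloid markers, 5 of 8, 4 of 7 and 6 of 9 lay below the filter level on every array, among them Cd8a, Rag2, Ms4a1, Csf1r and Lyz2. At or above that level on every array were the thymocyte markers Cd8b1, Ptcra and Ly6d. The same held for the B cell markers Cd22 and Cd79b and the myeloid markers Itgam, Fcgr3 and Cst3. Summed over all matched markers on the linear scale, levels were 224 to 265 in CD4-Vα14Tg and 232 to 240 in WT for thymocyte markers. They were 159 to 164 and 149 to 188 for B cell markers, and 385 to 392 and 409 to 426 for myeloid markers. T cell markers summed to 15899 to 18162 over all arrays. These sums hold different numbers of genes and carry each probe set's own response, so sums of different lists compare only roughly. Of these thymocyte, B cell and myeloid markers 1 passed the test, the integrin gene Itgam, which was higher in CD4-Vα14Tg cells by 0.67 in log2 units (limma adjusted p = 0.0438) and did not pass without any 1 array (limma adjusted p from 0.0856 to 0.209). At an unadjusted p under 0.05, both tested B cell markers were counted (Cd22 at -0.64 and Cd79b at 0.48; limma adjusted p = 0.0785 and 0.124), and so was the Fc receptor gene Fcgr3 besides Itgam among 3 tested myeloid markers (-0.51, limma adjusted p = 0.116), but 0 of 3 tested thymocyte markers. Of the markers shared with NK and innate lymphoid cells or γδ T cells, Klri2 and the kinase gene Blk were lower in CD4-Vα14Tg cells (by -1.86 and -2.34 in log2 units, at limma adjusted p-values of 7.44e-04 and 7.59e-04). Ncr1 read 4.19 and 4.20 in CD4-Vα14Tg and 5.05 and 5.14 in WT; it lay below the filter level on both CD4-Vα14Tg arrays and entered the test only through the WT arrays, where it is high. It was called (limma adjusted p = 0.0122, and 0.0159 with no filter on dim genes), and not when either CD4-Vα14Tg array was left out (limma adjusted p = 0.0541 and 0.0553). The summed level of the γδ list was 210 to 227 in CD4-Vα14Tg and 538 to 541 in WT, over 2 matched genes, and that of the NK and innate lymphoid list 3106 to 3799 and 3128 to 3767, over 4. The latter sum is almost all Il7r (11.54 to 11.87 in log2 units), which T cells also express, so it does not show the lower readings of Klri2 and Ncr1. In the γδ sum the gap between genotypes is mostly Blk, so it adds little to the reading of Blk given above. Sox13, the other gene matched, differed by -0.28 (limma adjusted p = 0.446). Whether the makeup of the cells contributes to the differences below was not tested, and in bulk RNA fewer cells of a type and less RNA per cell cannot be told apart.

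None of the 7 lineage factors passed the test at this number of arrays. Bcl11b read 1.36-fold higher and Myb 1.40-fold lower in CD4-Vα14Tg cells, each with arrays that did not overlap between genotypes, while Zbtb16 read 1.17-fold higher. Gata3, Zbtb7b, Zbtb7a and Cul3 had overlapping arrays and differences of 1.02-fold to 1.13-fold. Of all genes tested, 265 passed limma's test at an adjusted p under 0.05, which is 1.95%, with 0.61% higher and 1.34% lower. At an unadjusted p under 0.05, 2 of the 7 were counted (Bcl11b higher, Myb lower), where the share of all genes is 11.7%, with 4.62% higher and 7.04% lower. Arrays of the genotypes did not overlap for 3 of the 7, against 39.1% of all genes, so that count is near the background.

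**Figure D1:**
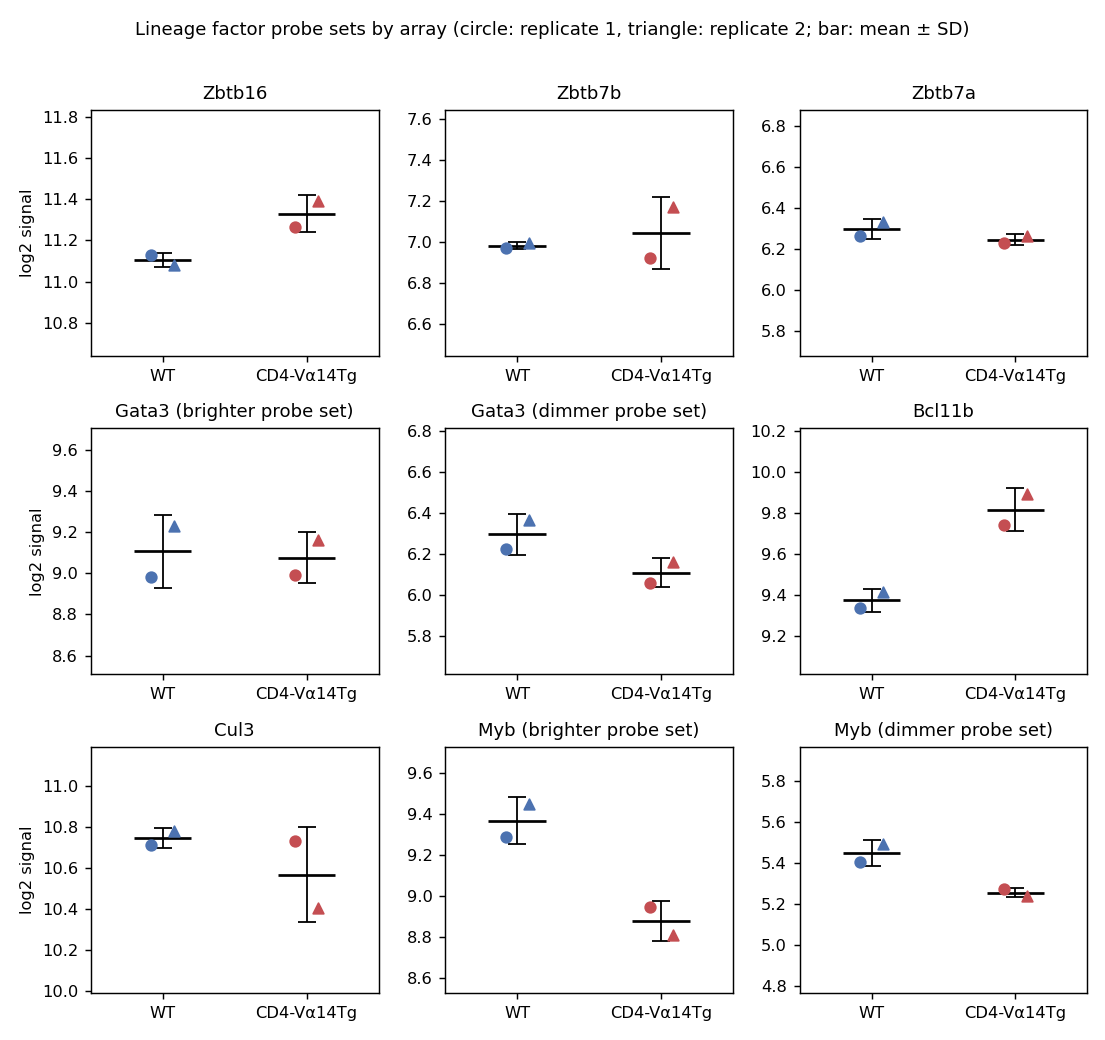
Log2 signal of the 9 lineage factor probe sets on each array, with WT in blue and CD4-Vα14Tg in red; circles are replicate 1 and triangles replicate 2, and bars give the mean ± SD of 2 arrays. Every panel spans the same height on the log2 axis, so that the gaps can be compared: the genotypes are apart for Zbtb16, Bcl11b, both Myb probe sets and the dimmer Gata3 probe set, and overlap in the other panels.

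Zbtb16 encodes PLZF, the BTB zinc finger factor that directs iNKT differentiation. Its probe set read 11.27 and 11.39 on the CD4-Vα14Tg arrays and 11.13 and 11.08 on the WT arrays, all in log2 units. Both CD4-Vα14Tg arrays lay above both WT arrays, and all 4 were above the filter level. The means were 11.33 ± 0.090 and 11.10 ± 0.033 (SD, n = 2 arrays each), a log2 difference of 0.23 (limma adjusted p = 0.567). The 95% interval of the ratio of CD4-Vα14Tg to WT ran from 0.963 to 1.42.

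Cul3 encodes the scaffold of a family of E3 ubiquitin ligases; PLZF binds CUL3 and carries it into the nucleus early in iNKT differentiation. Cul3 read 10.73 and 10.40 on the CD4-Vα14Tg arrays and 10.71 and 10.78 on the WT arrays. CD4-Vα14Tg replicate 2 stood below the other 3 arrays, which lay within a narrow range of each other. The log2 difference of -0.18 (limma adjusted p = 0.771; interval of the ratio 0.699 to 1.12) rested on that array: without it the difference was -0.013, and without CD4-Vα14Tg replicate 1 it was -0.34. The log2 ratio of Zbtb16 to Cul3 inside each array was 0.54 and 0.99 in CD4-Vα14Tg and 0.42 and 0.30 in WT. These ratios carry the 2 probe sets' own response, so only their change of 0.40 between genotypes can be read. That change was 0.63 without CD4-Vα14Tg replicate 1 and 0.18 without CD4-Vα14Tg replicate 2.

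Zbtb7b encodes ThPOK, which holds T cells in the CD4 lineage by restraining Runx3 and the cytotoxic program, and which also limits interleukin-17 production in iNKT cells. The probe set of Zbtb7b read 6.92 and 7.17 in CD4-Vα14Tg and 6.97 and 6.99 in WT, so that the WT arrays fell between the CD4-Vα14Tg arrays. The log2 difference was 0.063 (limma adjusted p = 0.946), and the interval of the ratio ran from 0.843 to 1.29. Without CD4-Vα14Tg replicate 2 the sign turned, to -0.061.

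Runx3, the factor that ThPOK opposes, fell. Runx3 read 6.95 and 7.39 in CD4-Vα14Tg and 8.37 and 8.54 in WT, a 2.44-fold fall (limma adjusted p = 0.0130, 0.0115 to 0.0494 over the fits on 3 arrays, and 0.108 when all probe sets were tested in place of genes). The log2 ratio of Zbtb7b to Runx3 inside each array was -1.40 and -1.55 in WT and -0.031 and -0.22 in CD4-Vα14Tg, a change of 1.35 (1.25 to 1.44 on leaving out any 1 array). Of that change, Runx3 contributed its log2 difference of -1.28 and Zbtb7b its 0.063. The co-receptor gene Cd4 read 9.52 and 9.72 against 9.57 and 9.84, while Cd8a read 4.38 to 4.60 over all arrays and lay below the filter level on each. Cd8b1, the other CD8 chain gene, lay above the filter level on all 4 arrays. It read 5.24 and 5.52 in CD4-Vα14Tg and 5.40 and 5.52 in WT (limma adjusted p = 0.929).

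Zbtb7a encodes LRF, a close relative of ThPOK that shares part of its work in CD4 T cells. Zbtb7a was the member with the narrowest range: 6.23 and 6.26 in CD4-Vα14Tg and 6.26 and 6.33 in WT, a spread of 0.10 over the 4 arrays. The log2 difference was -0.051 (limma adjusted p = 0.955), with an interval of the ratio from 0.799 to 1.17. The log2 ratio of Zbtb7b to Zbtb7a inside each array was 0.70 and 0.91 in CD4-Vα14Tg and 0.71 and 0.66 in WT, a change of 0.11 that was smaller than the SD of 0.15 between the CD4-Vα14Tg arrays.

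The Zbtb7a promoter is shown because it is the window of this gene set that holds a GATA motif, the DNA word read by the factor of the same set, GATA3. Promoter windows from 250 bases before to 50 after a start site were in the RefSeq table (GRCm38.p6) for 6 of the 7 genes, 7 windows in all with 2 for Zbtb7b. They were searched on both strands for AGATAA as the word of GATA factors, for AACNG as that of MYB, for TGTGGT as that of RUNX factors and for CTTTGA as that of TCF and LEF factors. These words occur in 11.2%, 80.3%, 16.8% and 16.0%, in that order, of the 32817 windows of the same length in that table; no match of one motif overlaps one of another in the 3 windows printed, other than a MYB match that shares 1 base with the GATA match 116 bases before the Zbtb7a start site. In the Zbtb7a window, at chr10:81136021-81136320 on the plus strand, AGATAA occurs on both strands, starting 116 bases and 39 bases before the start site, and is in capitals.
Zbtb7a promoter: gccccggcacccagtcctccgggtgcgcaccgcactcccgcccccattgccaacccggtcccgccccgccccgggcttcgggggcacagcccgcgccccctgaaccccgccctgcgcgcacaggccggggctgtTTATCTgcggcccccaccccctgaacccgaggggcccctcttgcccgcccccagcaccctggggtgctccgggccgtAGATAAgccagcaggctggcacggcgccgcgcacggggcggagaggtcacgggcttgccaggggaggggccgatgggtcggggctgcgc
A match is only a run of letters and says nothing about binding. Neither Gata3 nor Zbtb7a passed the test between genotypes. Windows for Gata3, Zbtb7b, Bcl11b, Cul3 and Myb held 0 matches to AGATAA on either strand. The RUNX motif had 1 match among the 7 windows. It lay in the Zbtb7b window at chr3:89387622-89387921, starting 89 bases before the start site.

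Gata3 encodes the factor needed for CD4 T cell development and type 2 cytokine production, and for interleukin-4-producing iNKT cells. Its brighter probe set read 8.99 and 9.16 in CD4-Vα14Tg and 8.98 and 9.23 in WT. The pairs of arrays covered almost the same range, with a log2 difference of -0.031 (limma adjusted p = 0.983) and an interval of the ratio from 0.780 to 1.23. The dimmer probe set of Gata3 read 6.06 and 6.16 in CD4-Vα14Tg and 6.22 and 6.37 in WT. There the genotypes did not overlap, with a difference of -0.19 (limma adjusted p = 0.768 over the 24259 probe sets past the filter). The 2 probe sets of Gata3 thus differ in whether the arrays overlap. The sign for Gata3 was not stable: it was positive at 0.056 without CD4-Vα14Tg replicate 1, at 0.095 without WT replicate 2 and at 0.0041 after another round of quantile normalization.

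Bcl11b encodes a zinc finger factor that commits progenitors to the T lineage and that CD4+CD8+ thymocytes need to give rise to iNKT cells. Bcl11b read 9.74 and 9.89 in CD4-Vα14Tg and 9.34 and 9.41 in WT. Both CD4-Vα14Tg arrays were above both WT arrays by at least the width of either pair. The means were 9.82 ± 0.11 and 9.37 ± 0.056 (SD, n = 2 arrays each), a log2 difference of 0.44 with an interval from 0.15 to 0.73, or a ratio of 1.36 (1.11 to 1.66). This difference was larger in size than that of 92.7% of genes tested, but it did not pass after adjustment (limma adjusted p = 0.164). It kept its sign without any 1 array, at 0.37 to 0.52 (limma adjusted p from 0.252 to 0.474). Over the other settings that did not use the replicate numbers, the lowest limma adjusted p was 0.121.

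Myb encodes c-MYB, which keeps CD4+CD8+ thymocytes alive long enough for the Vα14 rearrangement and supports their SLAM receptor expression. Its brighter probe set read 8.95 and 8.81 in CD4-Vα14Tg and 9.29 and 9.45 in WT. Both CD4-Vα14Tg arrays lay below both WT arrays, with means of 8.88 ± 0.098 and 9.37 ± 0.11 (SD, n = 2 arrays each). The log2 difference was -0.49 with an interval from -0.79 to -0.19, or a ratio of 0.580 to 0.877 between CD4-Vα14Tg and WT (limma adjusted p = 0.141). It was larger in size than that of 94.0% of genes tested. The dimmer probe set of Myb read 5.27 and 5.24 against 5.41 and 5.49. It shifted the same way, again without overlap, by -0.19 (limma adjusted p = 0.732 over the 24259 probe sets past the filter). The brighter probe set kept its sign without any 1 array, at -0.57 to -0.41 (limma adjusted p from 0.217 to 0.497), and the lowest limma adjusted p over the other settings without the replicate numbers was 0.104.

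The promoters of Bcl11b and Myb are shown as those of the 2 members with the largest differences, which went in opposite directions. The Bcl11b window lies at chr12:108003365-108003664 and the Myb window at chr10:21160935-21161234, both on the minus strand of GRCm38.p6, and capitals mark every match to the MYB and the TCF and LEF motif.
Bcl11b promoter: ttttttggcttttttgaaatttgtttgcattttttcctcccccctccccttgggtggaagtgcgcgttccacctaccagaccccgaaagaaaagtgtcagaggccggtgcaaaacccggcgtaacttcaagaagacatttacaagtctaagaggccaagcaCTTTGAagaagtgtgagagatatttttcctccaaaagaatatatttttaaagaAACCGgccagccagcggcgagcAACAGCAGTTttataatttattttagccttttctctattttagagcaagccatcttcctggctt
Myb promoter: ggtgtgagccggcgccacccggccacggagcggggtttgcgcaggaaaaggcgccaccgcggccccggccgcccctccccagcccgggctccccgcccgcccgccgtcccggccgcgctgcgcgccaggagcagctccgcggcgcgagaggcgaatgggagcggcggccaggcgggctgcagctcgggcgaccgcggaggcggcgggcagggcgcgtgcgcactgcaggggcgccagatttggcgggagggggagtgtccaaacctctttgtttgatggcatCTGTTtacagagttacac
The windows differ in base composition, with 43.0% G and C for Bcl11b and 75.0% for Myb, against a median of 52.7% over all windows. Bcl11b has 3 matches to the MYB motif, of which 2 abut, and 1 to the TCF and LEF motif, while Myb has 1 match to its own motif, after the start site. The MYB motif is in 80.3% of all windows, so its presence does not set these promoters apart.

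The error of each member decides what could have been seen. At the fitted standard errors, with the smallest moderated t that passed among all genes (5.37), a difference of 0.62 (Zbtb7a) to 0.77 (Cul3) in log2 units was needed for a call, or 1.54-fold to 1.71-fold. Bcl11b would have needed 1.57-fold against the 1.36-fold seen, and Myb 1.60-fold against 1.40-fold. The 95% intervals of Zbtb16, Zbtb7b, Zbtb7a, Gata3 and Cul3 ended short of the size needed for a call, whereas those of Bcl11b and Myb reached past it. Interval and size needed both scale with the same error, so this restates each gene's moderated t. It does not show that a difference is absent. A permutation of 2 against 2 arrays cannot give a two-sided p below 0.333, so no exact test could pass here.

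**Figure D2:**
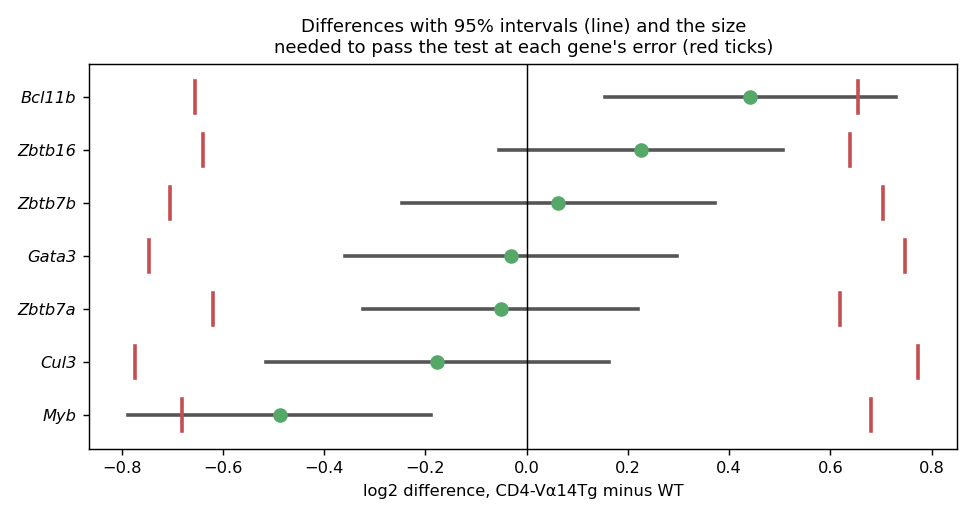
Log2 difference between CD4-Vα14Tg and WT for each lineage factor gene (green point) with limma's 95% interval (grey line); red ticks mark the size needed to pass the test at that gene's error. The intervals of Bcl11b (0.15 to 0.73) and Myb (-0.79 to -0.19) lie on one side of 0 and reach a tick, and the other 5 intervals include 0 and reach none.

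The set as a whole showed no common direction: 3 members had positive and 4 negative differences, with a median of -0.031 against -0.022 over all genes tested. The median size of the difference was 0.18 in the set and 0.11 over all genes tested. When arrays were left out in turn, Bcl11b, Zbtb16, Zbtb7a, Cul3 and Myb kept their sign in all 4 fits. Zbtb7b changed sign in 1 of them and Gata3 in 2.

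**Figure D3:**
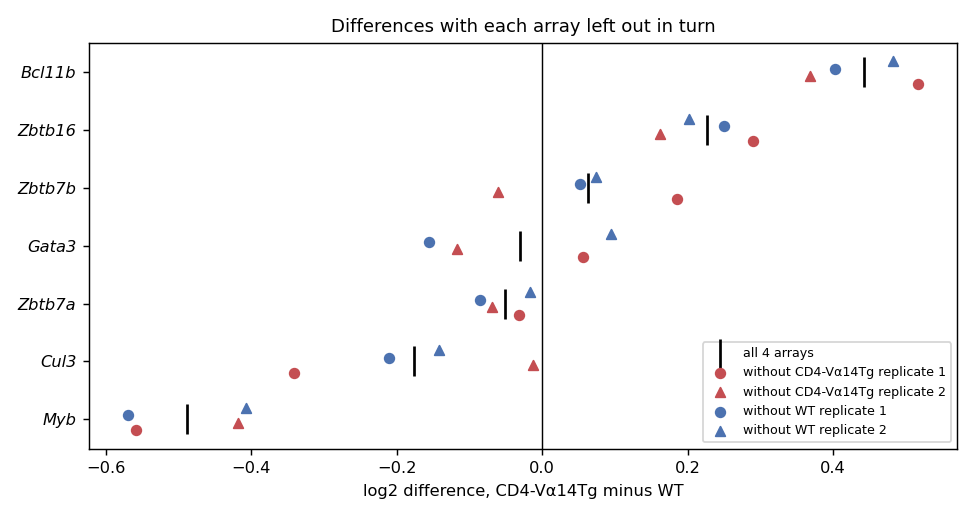
Log2 difference between CD4-Vα14Tg and WT for each lineage factor with all 4 arrays (black bar) and with each array left out in turn (symbols; red for a CD4-Vα14Tg array left out, blue for WT, circle for replicate 1 and triangle for replicate 2). Bcl11b stays between 0.37 and 0.52 and Myb between -0.57 and -0.41, Cul3 moves from -0.34 to -0.013, and Gata3 and Zbtb7b cross 0.

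Relatives and partners of the lineage factors were taken from lists chosen with earlier results of these data known. Their counts are descriptions, to be read beside the shares of all genes tested: 1.95% called, and 11.7% at an unadjusted p under 0.05. Of 36 tested genes of the wider BTB zinc finger family, 0 passed limma's test (2 higher and 2 lower at an unadjusted p under 0.05), with a median log2 difference of -0.0070. Patz1, which encodes the repressor MAZR that acts on the Cd8 and Zbtb7b loci, had the largest moderated t in this family. It read 7.58 and 7.43 in CD4-Vα14Tg and 6.97 and 6.88 in WT, a difference of 0.58 (limma adjusted p = 0.0726). Zbtb38, which encodes a protein that binds methylated DNA, came next at -0.43 (limma adjusted p = 0.217). Of 17 PLZF partners and corepressors, 0 passed (1 higher and 1 lower unadjusted), with a median of 0.031. Ezh2, the histone methyltransferase of Polycomb complexes, had a difference of 0.46 (limma adjusted p = 0.158), and the deacetylase gene Hdac7 one of -0.34 (limma adjusted p = 0.372). Of 27 genes of the CUL3 ligase machinery, 0 passed (1 higher unadjusted, the adaptor Klhl22 at 0.46, limma adjusted p = 0.334), with a median of -0.026. The adaptor gene Kctd10 came next at 0.23 (limma adjusted p = 0.572). Of 25 BCL11B partners and chromatin remodellers 0 passed (1 higher unadjusted, Runx1), with a median of -0.032. Runx1 had a difference of 0.53 (limma adjusted p = 0.0849), and Mta1, a subunit of the NuRD remodelling complex, one of -0.24 (limma adjusted p = 0.498).

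Calls were made in the lists of genes downstream of PLZF, of the choice between CD4 and CD8 fates and of GATA3. Whether their shares differ from that of the lineage factors was not tested. The lists share genes, so their counts are not separate results. Maf, Il4 and Icos stand in both the PLZF-dependent and the GATA3 list, and the call of Maf is counted in both. Runx1, counted above in the BCL11B list, is also in the list of CD4 and CD8 fates. The list of genes dependent on PLZF in iNKT cells was used without regard to whether PLZF raises or lowers each gene. Of its 20 tested genes, 8 passed, with 6 lower and 2 higher (11 lower and 3 higher at an unadjusted p under 0.05). Of the 20, Il23r, Il1r1 and Ccr6 lay below the filter level on both CD4-Vα14Tg arrays. They entered the test only through the WT arrays, where they are high, so these counts support nothing by themselves. With no filter on dim genes, which tests all 22180 genes and calls 222, the list held 7 calls, 5 lower and 2 higher. The median difference of the 20 genes was -0.44 log2 units. It includes Il23r, Il1r1 and Ccr6, so it supports nothing by itself either. Zbtb16 had a difference of 0.23, and whether the list follows Zbtb16 was not tested. The 6 lower calls with the filter included Il23r, Il1r1, Tbx21 (encoding T-bet) and Itgae (encoding CD103). The 2 that rose were Ccr7 and S1pr1, receptors for lymph node entry and tissue egress. Tbx21, the gene of the factor behind interferon-γ-producing iNKT cells, read 7.41 and 7.79 in CD4-Vα14Tg and 9.07 and 8.91 in WT, a difference of -1.39 (limma adjusted p = 0.00819). Ccr7 read 9.44 and 9.24 against 7.72 and 7.86, a difference of 1.55 (limma adjusted p = 0.00281). Leaving out either WT array left 4 calls in the list: Il23r and Il1r1 then no longer entered the test, and 2 further genes missed the threshold. Itgae had a limma adjusted p of 0.0523 without WT replicate 1. Of 13 tested genes of the CD4 and CD8 fates, 4 fell (Gzmb, Nkg7, Runx3 and Prf1) and 1 rose (Lef1, 0.84, limma adjusted p = 0.0172). At an unadjusted p under 0.05, 5 of these genes were lower and 2 higher. Gzmb, which encodes the cytotoxic protease granzyme B, read 7.62 and 7.33 in CD4-Vα14Tg and 10.34 and 10.25 in WT, a 7.08-fold fall (limma adjusted p = 4.09e-04). The median of these 13 genes was -0.099. Leaving out WT replicate 2 or either CD4-Vα14Tg array left 3 calls in this list. Lef1 lost its call without any 1 array (limma adjusted p from 0.0501 to 0.0745), and Prf1 lost it without any but WT replicate 1.

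Of 13 tested GATA3 and type 2 genes, 2 were called, both lower, and the list median was -0.21, beside -0.031 for Gata3 itself. At an unadjusted p under 0.05, 5 were lower and 1 higher (Ccr4 at 0.60, limma adjusted p = 0.0937). Maf, the gene of the c-MAF factor of type 2 and interleukin-17-producing T cells, read 8.23 and 8.46 in CD4-Vα14Tg and 9.26 and 9.54 in WT (-1.05, limma adjusted p = 0.0172). The limma adjusted p of Maf was 0.0726 on leaving out CD4-Vα14Tg replicate 1 and 0.0704 on leaving out WT replicate 2. The chemokine receptor gene Ccr8 had -0.89 (limma adjusted p = 0.0382) and lost its call without 3 of the 4 arrays. The list then held 0 calls on leaving out CD4-Vα14Tg replicate 1 or WT replicate 2, and 1 on leaving out CD4-Vα14Tg replicate 2. Of 19 tested relatives, partners and targets of MYB, 0 passed (4 higher and 2 lower unadjusted), with a median of -0.035. Slamf6, a SLAM receptor, and Cdk6, a cell cycle kinase, had the largest moderated t in that list, at 0.73 and 0.64 (limma adjusted p = 0.0603 for both). The 2 lower genes were Cebpb and the survival gene Bcl2, at -0.56 and -0.77 (limma adjusted p = 0.0864 and 0.191; named after their values were seen), so the list held differences in both directions. Without CD4-Vα14Tg replicate 2 the MYB list held 1 call, the chemokine receptor gene Cxcr4 at 0.94 (limma adjusted p = 0.0439; a gene named after its values were seen).

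**Figure D4:**
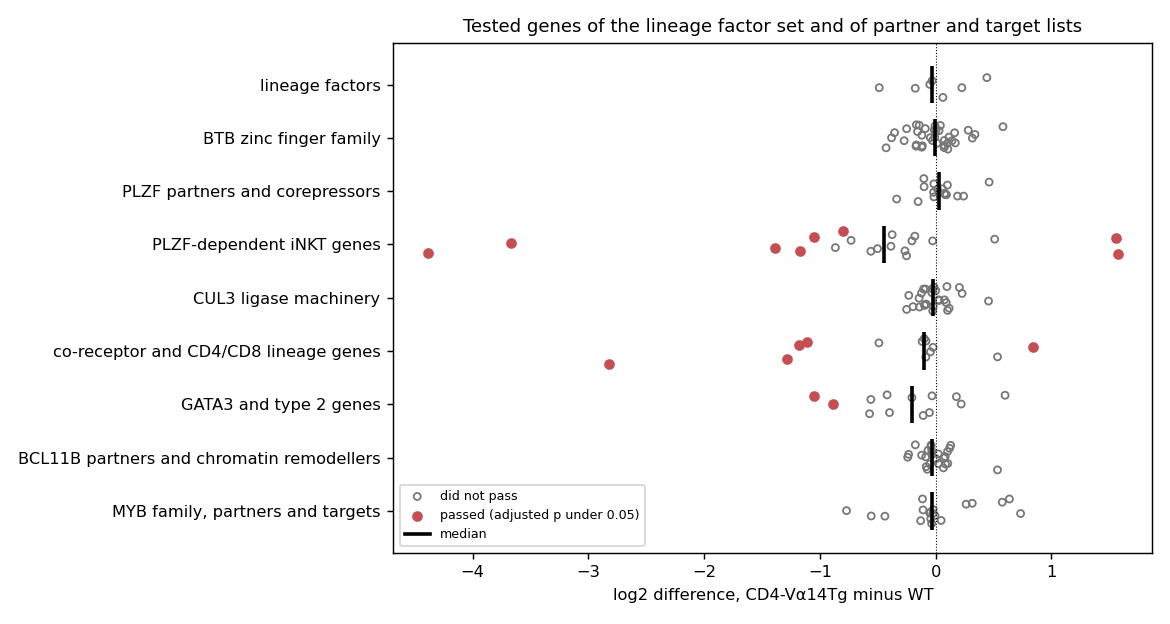
Log2 difference between CD4-Vα14Tg and WT of every tested gene in the lineage factor set and in 8 partner and target lists; filled red points passed limma's test, open points did not, and black bars are list medians. Calls lie in the PLZF-dependent, CD4/CD8 lineage and GATA3 lists, whose medians are -0.44, -0.099 and -0.21, and the lineage factors themselves lie between -0.49 and 0.44 with no call. The PLZF-dependent median includes Il23r, Il1r1 and Ccr6, which entered the test only through the WT arrays.

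Genes with the most similar pattern were found by the smallest distance between log2 values centred on each gene's mean over the 4 arrays. The nearest to Bcl11b were Faah and Acnat2 at distances of 0.030 and 0.049, and the nearest to Myb were Plekho2 and Mef2a at 0.017 and 0.026. Of 13601 other genes, 30 lay within 0.1 of Bcl11b and 30 within 0.1 of Myb. The nearest to Zbtb16 were Lss and Sfxn4 (0.012 and 0.029), with 208 genes within 0.1. For the other members, 348 genes lay within 0.1 of Zbtb7b, 471 of Gata3, 112 of Cul3 and 1184 of Zbtb7a, with Batf2 and Qtrt2, Ccdc91 and Abcd4, Zfp385a and Pspc1, and Spr and Rtn4ip1 the nearest in that order. With 4 arrays such likeness is a description only.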

How the data were processed

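The deposited values are log2 signals, 1 per probe set and array, which the authors made with RMA and Affymetrix Power Tools, per the submitters' processing notes. Tool versions, options and the build: not given in the sources used here. Array medians of 5.04 to 5.07 fit the log2 scale that RMA gives. RMA includes quantile normalization, which hides a shift of total RNA. Gene names come from the platform annotation (23521 with 1 symbol, 1814 with several, 16010 with none), symbols being updated by Entrez number through a RefSeq table (21994 of 22180 genes matched). For a gene with several probe sets the brightest was used, and a gene was tested when at or above the 40th percentile of named probe sets on at least 2 arrays. The test was limma's (3.58.1, under R 4.3.3; lmFit and eBayes, two-sided), with Benjamini-Hochberg adjustment over 13602 genes and 0.05 as the threshold; the pipeline was tested on simulated data. Plots used Python 3.11.15 and matplotlib 3.10.9. Levels of different probe sets are compared only in the summed marker levels, as a rough description. Of the log2 ratios inside an array only the change between genotypes is read. Members and lists were chosen with earlier results of these data known. Named list genes are those past the threshold (at most 6 by moderated t) or the 2 with the largest moderated t; other names are marked in the text or stand beside a count.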

Additional observations from a re-analysis of the deposited data

How the results depend on the processing

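No lineage factor passed under any of 11 alternatives, and the directions of Zbtb16, Zbtb7a, Bcl11b, Cul3 and Myb held in all of them. Gata3 ranged from -0.16 to 0.095 and Zbtb7b from -0.061 to 0.19 without 1 array, as did Cd8b1 from -0.23 to 0.058 and Ptcra from -0.15 to 0.38, and Gata3 was 0.0041 with quantile normalization. Over all genes, 150 to 208 were called without 1 array and 135 when all probe sets were tested; there the PLZF-dependent, co-receptor and GATA3 lists held 3, 1 and 0 calls. Without 1 array these lists held 4 to 7, 3 to 4 and 0 to 2 calls, and the MYB list 0 to 1. The GATA3 list held 1 call with no filter and 1 with quantile normalization, and the MYB list held 2 with quantile normalization, 2 with eBayes trend and robust options and 1 with the mean of probe sets. The causes were not tested. Replicate numbers are shared by the genotypes, but no label says that they pair samples. Deviations of same-numbered arrays correlated at 0.26 and those of differently numbered arrays at -0.26. With 2 arrays per genotype these values must mirror each other, so they cannot tell whether the samples are paired. With the replicate block, 674 genes were called, and the lists held 1 (BTB zinc finger), 4 (GATA3), 1 (BCL11B) and 4 (MYB) calls, with 0 lineage factors called (limma adjusted p = 0.0729 for Bcl11b and 0.0708 for Myb). The number of arrays, 2 per genotype, limits the precision.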
